A study of Rattus norvegicus with 8 samples.

Results

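The genes described here are 9 genes of metal handling, taken by name as Mt2A, Mt1, Mtf1, Slc30a1, Slc39a4, Slc11a2, Slc40a1, Tfrc and Fth1. The array carried probes for 26913 genes, of which 19392 were bright enough to be tested, and the 9 genes were all among them. Here and below, a transcript or probe target without a gene symbol counts as a gene of its own. Of the genes tested, 11556 had a symbol. Their 14 probes were well above background in all 16 rats, so none was lost to the filter on dim signals.

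The colon of 16 female Wistar rats, 6 weeks old in the labels, was profiled on 8 two-colour Agilent arrays, with total RNA from a 5 mm piece of the middle colon. Each diet was represented by 4 rats. The REF group ate a purified reference diet, the C10 group a diet with cocoa powder, the CF group a diet with cocoa fiber, carrying the same fiber as C10 and very little polyphenol, and the I group a diet with inulin, a soluble fiber. The methods list less of the common mineral mix in the 3 experimental diets than in REF, and minerals brought by the powder in C10 and CF, whereas the zinc, iron and copper content of the diets is not given in the sources used here. Every rat lay on 1 array and was labelled with 1 dye, and each diet had 2 rats in Cy5 and 2 in Cy3. C10 rats shared arrays 1 and 2 with REF rats and arrays 3 and 4 with CF rats, and I rats shared arrays 5 and 6 with CF rats and arrays 7 and 8 with REF rats. A difference between C10 and I can therefore not be told apart from one between the array sets except through REF and CF. The values below are normalized log2 signals of a probe, on which a difference of 1 is a 2-fold change. They are set side by side only for the same probe, since the brightness of different probes is not comparable. A piece of tissue holds many cell types, and fewer cells of a type cannot be told apart from less RNA per cell.

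Markers of the colonic epithelium were detected in the samples, 9 of 9 being well above background in all 16 rats. Their mean lay between 12.92 and 14.02 in single rats and its diet means were 13.49 in REF, 13.52 in C10, 13.41 in CF and 13.52 in I. B cell markers, by contrast, varied widely, and they did so by array rather than by diet. The mean of the 6 that could be tested, of 8 listed, was between 6.84 and 7.17 in the 8 rats of arrays 2, 4, 6 and 8 and between 7.96 and 10.09 in the 8 rats of arrays 1, 3, 5 and 7. The 2 rats of an array differed by at most 0.23 in 7 of the 8 arrays, and by 1.83 on array 1, while the array means spanned 3.09. Those values are repeated below beside the genes that moved with them.

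Metallothioneins are small cysteine-rich proteins that bind zinc and copper and buffer the cell against free metal. When zinc rises, the zinc-sensing transcription factor encoded by Mtf1 binds short metal response elements in DNA and switches on the metallothionein genes and Slc30a1, which encodes the zinc exporter ZnT1. Slc39a4 encodes ZIP4, the importer that brings dietary zinc into intestinal epithelial cells and is withdrawn when zinc is plentiful. Intestinal iron enters through the divalent metal transporter DMT1, encoded by Slc11a2, and leaves towards the blood through ferroportin, encoded by Slc40a1. Tfrc encodes the transferrin receptor that takes up circulating iron, and Fth1 the ferritin heavy chain that stores it. Iron-regulatory proteins bind the messenger RNAs of the last 4 genes, stabilizing Tfrc and some forms of Slc11a2 and holding back the translation of ferritin when iron is scarce.

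The promoters of the metallothionein genes are shown first because they carry matches to the core of the metal response element. In the RefSeq annotation of the rat assembly GRCr8, Mt2A lies at chr19:10837934-10838708 and Mt1 at chr19:10831959-10832975, both on the minus strand, with 4958 bases and 0 annotated genes between them. The 250 bases before each start, read 5′ to 3′ on the strand of the gene, are printed in lower case with capitals for each match to the cores TGCGCNC or TGCACNC on either strand. The Mt2A stretch is chr19:10838709-10838958 and the Mt1 stretch is chr19:10832976-10833225.
Mt2A: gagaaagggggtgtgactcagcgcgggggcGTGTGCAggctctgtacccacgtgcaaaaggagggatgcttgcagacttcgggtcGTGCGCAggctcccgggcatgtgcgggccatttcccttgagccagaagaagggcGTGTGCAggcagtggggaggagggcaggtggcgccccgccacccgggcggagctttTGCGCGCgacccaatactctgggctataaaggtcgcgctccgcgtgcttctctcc
Mt1: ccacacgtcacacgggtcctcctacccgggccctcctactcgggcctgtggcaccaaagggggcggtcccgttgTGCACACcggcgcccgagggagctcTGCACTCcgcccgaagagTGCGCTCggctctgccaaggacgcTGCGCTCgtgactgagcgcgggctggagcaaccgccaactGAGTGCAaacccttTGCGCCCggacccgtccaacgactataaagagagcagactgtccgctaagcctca
The Mt1 promoter held 6 cores and the Mt2A promoter 4. Among 33469 rat promoters, read from 250 bases before to 50 after the start, 24.2 % held at least 1 such core, 0.439 % held 4 or more and 0.0388 % held 6 or more. Tfrc had 3 cores, which 1.68 % of promoters reached, and Mtf1 and Slc30a1 had 2 each, which 6.36 % reached. The promoter of Slc40a1 and both promoters of Slc11a2 had 0 cores in this window, and Slc39a4 and Fth1 were not in the promoter table. A second motif, the antioxidant response core TGACNNNGC, was matched once in Mt1, Mt2A and Slc30a1 and 2 times in Mtf1, and was held by 12.1 % of all promoters. These matches describe letters in a window and were not tested for binding.

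The metallothionein mRNAs had the largest diet differences of the 9 genes, with the highest signals in the C10 group. Their difference from REF did not pass the test over all genes, in which the limma fit of diet and dye, with the array as a block, was adjusted over 19392 genes, a call needing both an adjusted p under 0.05 and a change of at least 2-fold. None of the 9 genes was called in C10 vs. REF, where 0.232 % of all tested genes were, and 3 of the 9 had an unadjusted p below 0.05, as had 18.7 % of all genes. The rank product method, with the same 2-fold threshold, called 2 of the 9, Mt2A and Mt1, as higher in C10 than in REF, where it called 0.701 % of all genes.

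Mt2A signals were 13.99, 13.97, 12.50 and 14.11 in REF rats 1 to 4. They were 14.98, 15.71, 14.72 and 14.68 in the C10 rats. The C10 rats all lay above the REF rats, and REF rat 3 lay below its own group. The group means were 13.64 ± 0.76 in REF and 15.02 ± 0.48 in C10 (SD, n = 4). The fitted difference was 1.24 on the log2 scale, a 2.36-fold higher signal, with a standard error of 0.41 log2, a 95 % interval from 0.36 to 2.12 and a limma adjusted p of 0.133. An exact two-sided permutation test over the rats gave p = 0.0286, the smallest that 4 against 4 rats allow, and in 2.62 % of all genes the 4 C10 rats likewise lay above the 4 REF rats. This test, here and below, shuffles rats regardless of array and dye, although rats that share an array are not independent. Without REF rat 3 the difference fell to 0.98, and it stayed between 0.98 and 1.41 when each of the 16 rats was left out in turn.

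CF rats gave 14.27, 14.94, 13.68 and 13.97 for Mt2A. I rats gave 11.95, 14.67, 11.85 and 13.97. Between them these groups overlapped with each other and with REF, and I rats 1 and 3 were the lowest of all 16. The means were 14.21 ± 0.54 in CF and 13.11 ± 1.42 in I (SD, n = 4), so the order of the diet means was C10, CF, REF, I, with neighbouring means differing by less than the SD of at least 1 of the 2 groups except from C10 to CF. The fitted difference of CF from REF was 0.63 with a 95 % interval from -0.33 to 1.59 (limma adjusted p = 0.824), and that of I from REF was -0.33 with an interval from -1.21 to 0.55 (limma adjusted p = 0.937). Without REF rat 3, the difference of CF from REF came to 0.295. That of I from REF ranged from -0.745 without REF rat 3 to -0.048 without REF rat 4, and was -0.084 without I rat 3.

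Mt1 followed the same order of diets. Its signals were 15.30, 16.08, 14.79 and 16.37 in REF, and 16.79, 17.15, 16.35 and 16.59 in C10. They were 16.40, 16.40, 15.63 and 16.04 in CF, and 14.31, 16.28, 14.41 and 15.68 in I. Every C10 rat lay above every I rat, whereas 1 REF rat reached into the C10 range, with REF rat 4 at 16.37 above C10 rat 3 at 16.35. The means were 15.64 ± 0.72 in REF, 16.72 ± 0.34 in C10, 16.12 ± 0.37 in CF and 15.17 ± 0.97 in I (SD, n = 4). C10 exceeded REF by 1.04 log2, 2.05-fold, with a standard error of 0.34, an interval from 0.31 to 1.76 and a limma adjusted p of 0.129. The exact two-sided permutation test gave p = 0.0571.

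**Figure D1:**
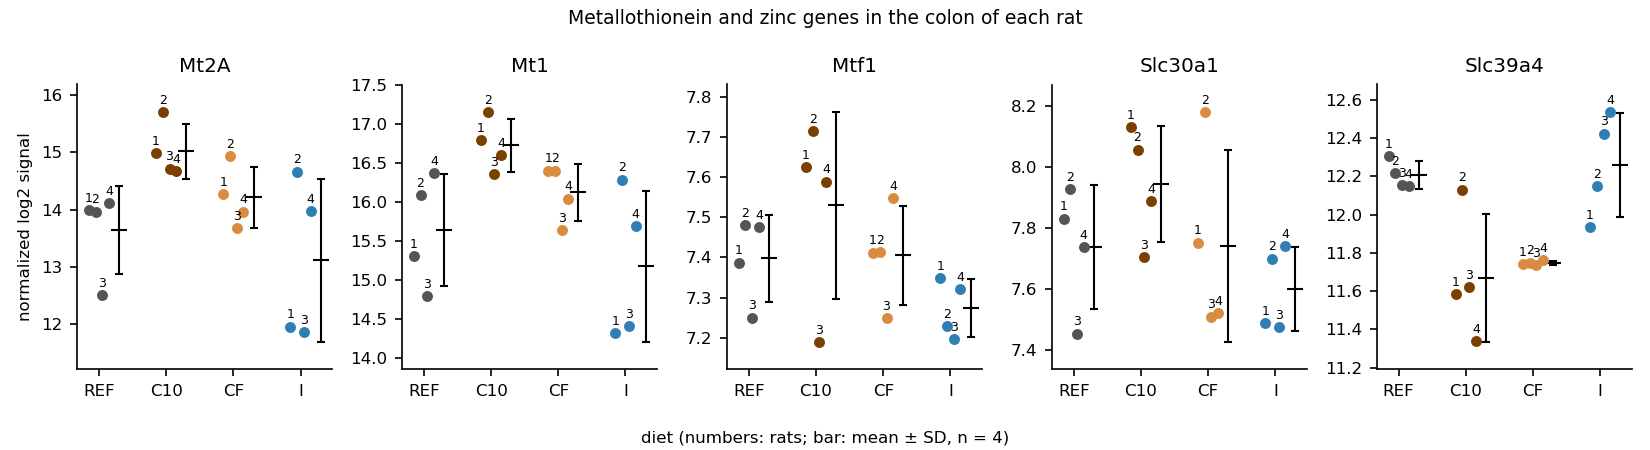
Normalized log2 signal (vertical axis) of Mt2A, Mt1, Mtf1, Slc30a1 and Slc39a4 in each of the 4 rats per diet (horizontal axis). Numbered points are rats and black bars are the mean ± SD, and the axes differ between panels. The 4 C10 rats lie above all REF rats for Mt2A and below all REF rats for Slc39a4, and REF rat 3 and I rats 1 and 3 are lowest for Mt2A.

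The contrast with inulin was the widest. In C10 vs. I none of the 9 genes was called, against 0.18 % of all genes, and 5 of the 9 had an unadjusted p below 0.05 against 12.9 % of all genes. The rank product method called Mt2A and Mt1 here too, and 0.562 % of all genes. Mt2A was 1.57 log2 higher in C10 than in I (SE 0.45, 95 % interval 0.61 to 2.53, limma adjusted p = 0.141), or 2.97-fold. Mt1 was 1.39 log2 higher (SE 0.37, interval 0.60 to 2.18, limma adjusted p = 0.119), or 2.62-fold. For both genes the 4 C10 rats lay above the 4 I rats, which gave an exact two-sided permutation p of 0.0286, and 3.41 % of all genes were separated in that direction. All C10 rats were on arrays 1 to 4, however, and all I rats on arrays 5 to 8. With the array set as a term, C10 exceeded I by 1.18 for Mt2A (limma adjusted p = 0.438) and by 1.21 for Mt1 (limma adjusted p = 0.345). In that fit C10 exceeded REF by 1.04 and 0.945.

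For the other pairs the counts of called genes were 0 of 9 in CF vs. REF, in I vs. REF and in CF vs. I, where 0 % of all genes were called, and 0 of 9 in C10 vs. CF, where 0.124 % were. At an unadjusted p below 0.05 they held 0, 0, 3 and 0 of the 9, against 7.18 %, 6.28 %, 3.27 % and 14.4 % of all genes. The rank product method called Mt2A in CF vs. I, where it called 0.0774 % of all genes, and none of the 9 in CF vs. REF, I vs. REF and C10 vs. CF, where it called 0.253 %, 0.155 % and 0.32 %. Mt2A was 0.61 log2 higher in C10 than in CF (SE 0.41, limma adjusted p = 0.523) and 0.96 higher in CF than in I (SE 0.41, limma adjusted p = 0.9995). The Mt1 values of these contrasts were 0.50 and 0.90 (SE 0.34 each, limma adjusted p = 0.528 and 0.9995). For CF vs. I, leaving out I rat 1 gave 0.638 for Mt2A and 0.583 for Mt1, and leaving out I rat 2 gave 1.5 and 1.4. Neither gene therefore separated the diet with cocoa powder from the diet with cocoa fiber alone, the interval for Mt2A running from -0.27 to 1.49.

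The arrays give a second view of these genes, because each holds a pair of rats in the same hybridization. The rats of a pair carry different dyes, and the differences within an array, here and below, are not corrected for dye. On arrays 1 and 2, Mt2A was 0.99 and 1.74 higher in the C10 rat than in the REF rat, and Mt1 was 1.49 and 1.07 higher. On arrays 3 and 4 the C10 rat differed from the CF rat by 0.44 and -0.26 for Mt2A and by -0.05 and 0.19 for Mt1. On array 5, the CF rat exceeded the I rat by 1.72 for Mt2A and by 1.32 for Mt1, and on array 6 it differed by -0.70 and -0.24. The I rat was below the REF rat on both of the arrays they shared, with differences of -0.65 and -0.14 for Mt2A and of -0.38 and -0.68 for Mt1. Both pairs of C10 and REF rats thus went the same way, while the pairs with a CF rat gave, for either partner, a difference of each sign for Mt2A. In these pairs, on arrays 3 to 6, Mt2A was higher in the Cy3 rat each time, and the part of the dye in these signs was not tested. A fit on the ratios within arrays alone put C10 above REF by 1.08 for Mt2A and by 0.98 for Mt1, and this fit called 0 genes of all in any diet pair. Within arrays 1 to 4 the differences were 1.19 (limma adjusted p = 0.144) and 1.15 (limma adjusted p = 0.128).

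The 3 rats lowest in Mt2A had B cell marker means near the top of the range. These means were 9.58 in REF rat 3, 9.89 in I rat 1 and 9.35 in I rat 3, all on arrays 5 and 7. CF rat 3, on array 5 with I rat 1, had the highest B cell mean, 10.09, and the lowest Mt2A of its group, 13.68. C10 rat 1, however, had a B cell mean of 9.79 with an Mt2A signal of 14.98, so that a high B cell mean did not always come with a low Mt2A. After the diet and dye effects were removed, the Pearson correlation of Mt2A over the 16 rats was -0.777 with the B cell mean and 0.782 with the epithelial mean, as a description without a test, and the rats of 1 array are not independent points. With the B cell mean and the mean of 3 posterior Hox genes as covariates, the latter being 6.84 to 10.17 in REF rats and 9.89 to 11.75 in C10 rats, C10 exceeded REF by 1.86 for Mt2A (limma adjusted p = 0.0205) and by 1.57 for Mt1 (limma adjusted p = 0.0215), and both genes were called. The same fit gave 1.99 (limma adjusted p = 0.0132) and 1.76 (limma adjusted p = 0.012) against I. Of all 19392 genes it called 37 in C10 vs. REF and 44 in C10 vs. I, where the fit without covariates called 45 and 35. The mean of the 5 erythroid markers tested was also higher with the cocoa diet, at 7.86 to 8.28 in REF and 8.45 to 9.06 in C10 rats. Of these 5, 4 were higher in C10 and Ahsp was lower, with a fitted difference of -0.22 (limma adjusted p = 0.579). The mean of all 6 mast cell markers was lower, at 8.77 to 8.91 in REF and 7.37 to 7.97 in C10. So was that of 6 of 7 striated muscle markers, at 7.39 to 7.91 and 6.51 to 7.23. Lower C10 values that overlapped with REF were found for macrophage markers (8.19 to 8.50 in REF and 7.51 to 8.40 in C10, 5 of 6 tested), adipocyte markers (9.13 to 11.22 and 8.19 to 9.79, 3 of 5) and smooth muscle markers. The part of these in the metallothionein values was not tested.

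**Figure D2:**
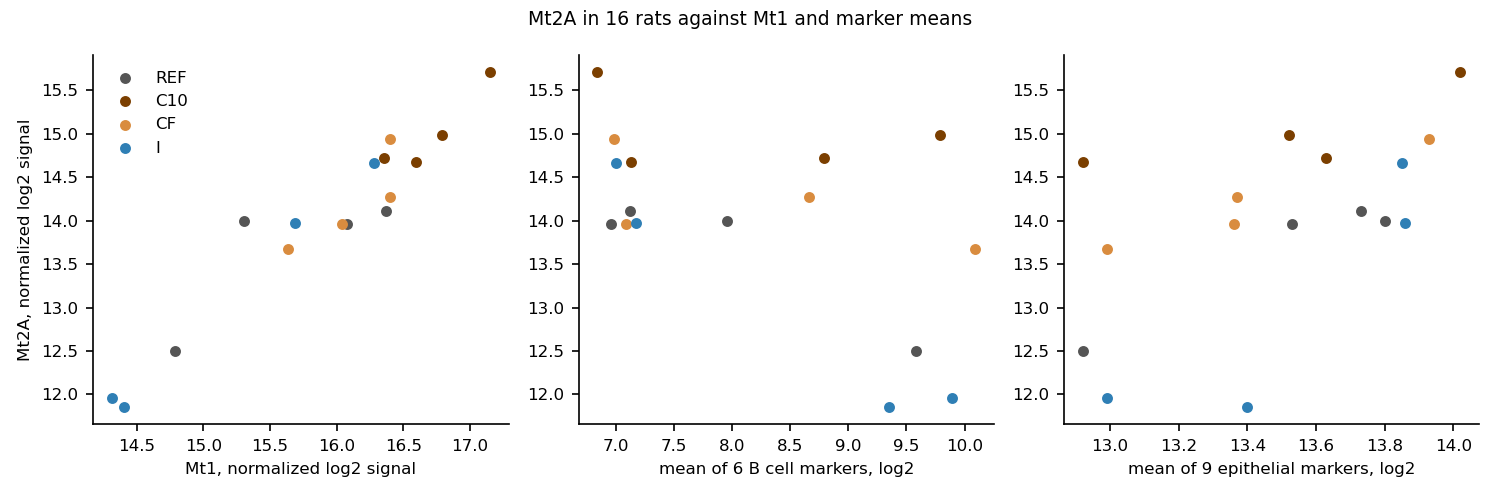
Mt2A log2 signal of the 16 rats (vertical axis) against the log2 signal of Mt1 (left), the mean log2 signal of 6 B cell markers (centre) and that of 9 epithelial markers (right), with colours for the diets. Mt2A rises with Mt1 along a narrow line (r = 0.96), the 3 rats with the lowest Mt2A have B cell means of 9.35 to 9.89, and C10 rats lie high in Mt2A at both ends of the B cell range.

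Mt2A and Mt1 moved together from rat to rat. Over the 16 rats their signals had a Pearson r of 0.96 and a Spearman rho of 0.921, each with a permutation p of 1e-05, the smallest that the resampling could give, and an adjusted p of 0.00036 over the 36 pairs of the 9 genes. Without I rats 1 and 3, the farthest from the median, r was 0.914. It was 0.847 on arrays 1 to 4 and 0.975 on arrays 5 to 8, and 0.967 after diet and dye effects were removed. The resampling treats the 16 rats as independent, although they lie in pairs on 8 arrays whose Mt2A means spanned 2.66, against a median difference of 0.675 within an array, so the permutation p-values of these correlations may be too small. The probe sequences were not used here, so signal shared between these closely related transcripts was not tested. Mt2A had a second probe, which gave r = 0.996 with the first over the rats and a larger difference, with C10 at 1.63 above REF (SE 0.48, limma adjusted p = 0.0981 over 21946 probes) and 2.01 above I (limma adjusted p = 0.118). Of the 19391 other genes, the 5 most like Mt2A over the 16 rats after removal of the dye effect were the transcripts listed as FQ220235 (r = 0.996) and ENSRNOT00000058957 (r = 0.994), then Mt1 (r = 0.983), an unnamed probe target (r = 0.936) and Sord, sorbitol dehydrogenase (r = 0.884).

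The sensor and the exporter had the same order of diet means as the metallothioneins, with far smaller differences. The CF and REF means were almost equal, at 7.405 and 7.398 for Mtf1 and 7.741 and 7.738 for Slc30a1, with SDs of 0.11 to 0.31. Mtf1 signals were 7.39, 7.48, 7.25 and 7.48 in REF and 7.62, 7.71, 7.19 and 7.59 in C10. They were 7.41, 7.41, 7.25 and 7.55 in CF and 7.35, 7.23, 7.20 and 7.32 in I. C10 rats 1, 2 and 4 were above every rat of the other diets, and C10 rat 3 was the lowest of all 16. The C10 group differed from REF by 0.15 (SE 0.08, limma adjusted p = 0.34) and from I by 0.24 (SE 0.09, limma adjusted p = 0.282). Without C10 rat 2 these differences were 0.0395 and 0.146.

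Slc30a1 signals were 7.83, 7.93, 7.45 and 7.74 in REF and 8.13, 8.06, 7.70 and 7.89 in C10. They were 7.75, 8.18, 7.51 and 7.52 in CF and 7.49, 7.70, 7.47 and 7.74 in I. The groups overlapped in every pair of diets, with CF rat 2 highest and REF rat 3 lowest. The difference of C10 from REF was 0.16 (SE 0.12, limma adjusted p = 0.541) and that of C10 from I was 0.17 (SE 0.14, limma adjusted p = 0.639). Without C10 rat 1 they were 0.0433 and 0.0795, and with the array set as a term the first was 0.0595.

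From rat to rat, Slc30a1 varied with both metallothioneins. Its Pearson r was 0.784 with Mt2A (permutation p = 0.00029, adjusted p = 0.00522, Spearman rho 0.797 with adjusted p = 0.00636) and 0.736 with Mt1 (permutation p = 0.00151, adjusted p = 0.0181, rho 0.788 with adjusted p = 0.00636). Without the 2 rats farthest from the median these were 0.756 and 0.663, and after removal of diet and dye effects 0.719 and 0.622. On arrays 1 to 4 they were 0.552 and 0.433, and on arrays 5 to 8 they were 0.756 and 0.735. Slc30a1, like Mt2A, also followed the epithelial marker mean, at 0.704 after diet and dye effects were removed, and the part of that in these correlations was not tested. Mtf1 correlated with Slc30a1 at r = 0.637, which missed the threshold after adjustment (permutation adjusted p = 0.0583, rho 0.685 with adjusted p = 0.032). Mtf1 also followed Fth1, at r = 0.719 (permutation p = 0.00232, adjusted p = 0.0209, rho 0.715 with adjusted p = 0.023), and 0.613 without C10 rats 1 and 2. Of the 36 pairs, these last and the 3 among Mt2A, Mt1 and Slc30a1 were the ones past the threshold by Pearson r.

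The zinc importer Slc39a4 went the other way from the metallothioneins, with its lowest signals in the C10 group. It measured 12.30, 12.22, 12.16 and 12.15 in REF and 11.59, 12.13, 11.62 and 11.34 in C10. In CF it was 11.74, 11.75, 11.74 and 11.76, and in I 11.93, 12.15, 12.42 and 12.54. All 4 C10 and all 4 CF rats lay below all 4 REF rats, the CF rats lay close together, and the I rats surrounded the REF rats. The means were 12.21 ± 0.07 in REF, 11.67 ± 0.33 in C10, 11.75 ± 0.01 in CF and 12.26 ± 0.27 in I (SD, n = 4).

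Against I, Slc39a4 was lower in C10 by the fitted log2 difference -0.62 (SE 0.12, 95 % interval -0.88 to -0.35), a 1.53-fold fall with a limma adjusted p of 0.0417. It thus passed the adjusted threshold without the 2-fold change, and was the only 1 of the 9 genes to do so in any pair, beside 0.634 % of all genes in C10 vs. I. In C10 vs. CF, 0.66 % of all genes passed in this way and 0 of the 9. The groups overlapped at C10 rat 2 and I rat 1, with an exact two-sided permutation p of 0.0571. Slc39a4 passed the adjusted threshold narrowly, since it did so in 3 of the 16 fits that left out a rat, in which the difference ran from -0.74 to -0.52. Against REF the C10 difference was -0.45 (SE 0.11, interval -0.70 to -0.21, limma adjusted p = 0.0635), a 1.37-fold lower signal, with an exact two-sided permutation p of 0.0286. Against REF, 1.53 % of all genes passed the adjusted threshold at any fold and 2.07 % had groups separated downward.

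CF rats were lower than REF rats, with a fitted difference of -0.27 (SE 0.12, limma adjusted p = 0.693), and lower than I rats, with one of -0.43 (SE 0.11, limma adjusted p = 0.9995), again with an exact permutation p of 0.0286 for each. The difference of CF from REF was smaller in other settings, at -0.0495 on log-ratios within arrays and -0.156 without normalization between arrays. Downward separation was seen in 0.779 % and 0.376 % of all genes in these pairs. C10 and CF differed by -0.19 (SE 0.11, limma adjusted p = 0.476), and I and REF by 0.16 (SE 0.11, limma adjusted p = 0.877), which was 0.0433 without I rat 3. On the shared arrays, the C10 rat differed from the REF rat by -0.72 and -0.09 and from the CF rat by -0.12 and -0.41. The CF rat differed from the I rat by -0.20 and -0.39, and the I rat from the REF rat by 0.27 and 0.39. Each of the 4 kinds of pair therefore went one way on both of its arrays. Over the rats Slc39a4 and Mt2A had r = -0.374 (permutation adjusted p = 0.37), and 0.213 after diet and dye effects were removed.

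**Figure D3:**
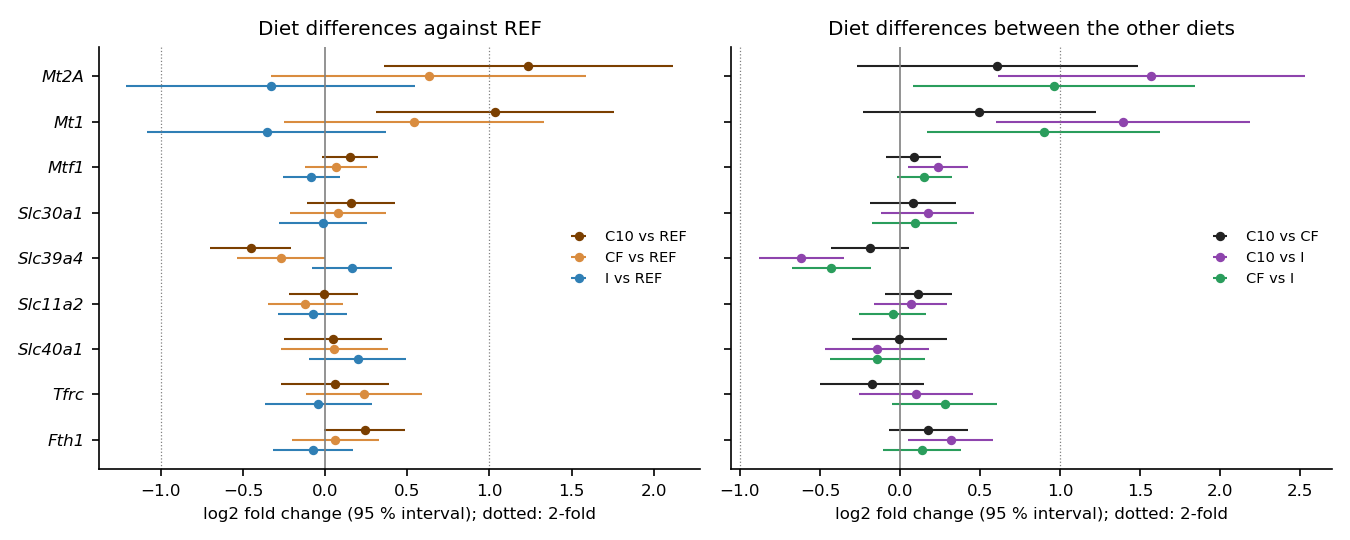
Fitted log2 fold change of the 9 genes (horizontal axis) with its 95 % interval, for the 3 diets against REF (left) and for the pairs among the other diets (right), the dotted lines marking a 2-fold change. Each gene is shown by its brightest probe. Mt2A and Mt1 reach 1.24 and 1.04 in C10 vs. REF with intervals that do not cover 0. Slc39a4 lies at -0.45 in C10 vs. REF and -0.62 in C10 vs. I. The largest difference among the 4 iron genes is 0.32, for Fth1 in C10 vs. I (95 % interval 0.05 to 0.58).

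The iron genes differed little between diets by the probe used for each gene, but not by a second probe of Slc11a2, described below. By the probe used for each gene, the fitted log2 differences of Slc11a2, Slc40a1, Tfrc and Fth1 had 95 % intervals that lay between -0.50 and 0.60 over the 6 diet pairs, which bounds any change below 2-fold. The storage gene Fth1 had its highest mean in C10, at 17.25, 17.25, 16.66 and 17.11, and was 16.78, 17.01, 16.53 and 17.19 in REF. It was 17.19, 16.50, 16.50 and 17.07 in CF and 16.86, 16.43, 17.07 and 16.56 in I. The groups overlapped throughout, with a difference of C10 from REF of 0.24 (SE 0.11, limma adjusted p = 0.277) and of C10 from I of 0.32 (SE 0.12, limma adjusted p = 0.305). Without C10 rat 2 these were 0.0295 and 0.145.

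Ferroportin mRNA, Slc40a1, was 11.59, 11.69, 11.84 and 11.46 in REF and 11.34, 11.85, 11.62 and 11.97 in C10. It was 11.90, 11.46, 11.48 and 12.05 in CF and 11.69, 11.93, 11.94 and 11.89 in I. The I rats were the most alike and had the highest mean, 11.87 ± 0.12 against 11.65 ± 0.16 in REF (SD, n = 4), with a fitted difference of 0.20 (SE 0.14, limma adjusted p = 0.877) and an exact two-sided permutation p of 0.0571. Without REF rat 4 the difference was 0.0765. The C10 and CF groups differed from REF by 0.05 and 0.06 (limma adjusted p = 0.886 and 0.963).

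Transferrin receptor mRNA, Tfrc, was 11.79, 12.05, 11.30 and 11.60 in REF and 11.88, 11.54, 11.82 and 11.91 in C10. It was 11.81, 11.93, 11.50 and 12.45 in CF and 11.64, 11.41, 11.72 and 11.63 in I. CF rat 4 was the highest of the 16 and REF rat 3 the lowest, and all groups overlapped. The difference of CF from REF was 0.24 (SE 0.17, limma adjusted p = 0.824), which was 0.0604 without CF rat 4, and that of C10 from REF was 0.06 (SE 0.15, limma adjusted p = 0.875).

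**Figure D4:**
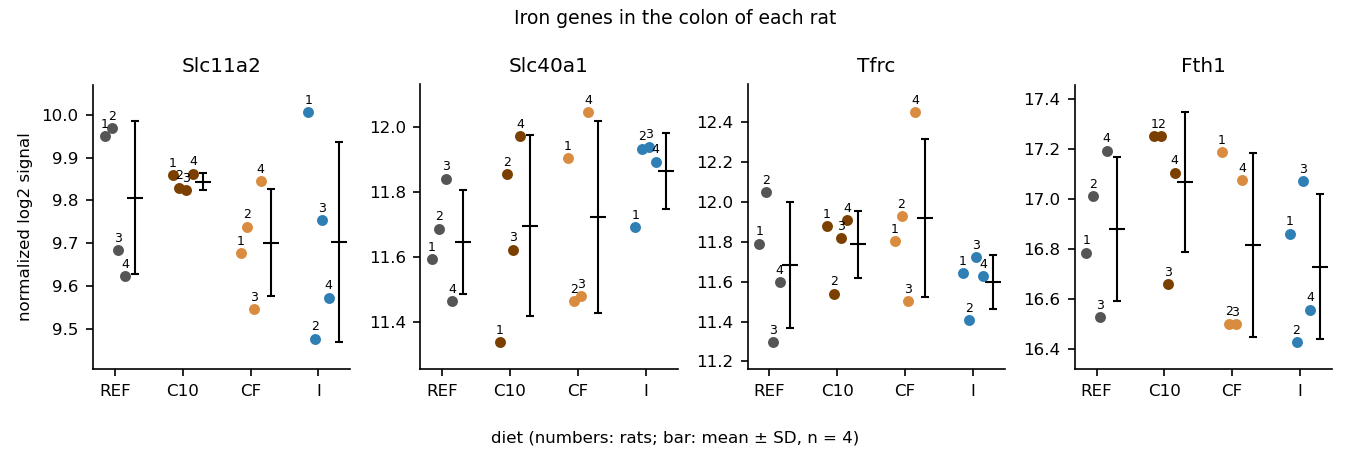
Normalized log2 signal (vertical axis) of Slc11a2, Slc40a1, Tfrc and Fth1, by the brightest probe of each gene, in each of the 4 rats per diet (horizontal axis). Numbered points are rats and black bars the mean ± SD, and the axes differ between panels. All diets overlap for Slc40a1, Tfrc and Fth1, and C10 rats lie within 9.82 to 9.86 for Slc11a2.

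The iron importer Slc11a2 gave different answers by its 2 probes. The brighter probe, which stands for the gene in the counts above, was 9.95, 9.97, 9.68 and 9.62 in REF and 9.86, 9.83, 9.82 and 9.86 in C10. It was 9.68, 9.74, 9.55 and 9.85 in CF and 10.01, 9.48, 9.75 and 9.57 in I. The groups overlapped with REF in every case, and the fitted difference of C10 from REF was -0.0089 (95 % interval -0.22 to 0.20, limma adjusted p = 0.976).

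The dimmer probe of Slc11a2, well above background in all 16 rats, gave 9.54, 9.55, 9.29 and 9.55 in REF and 10.16, 9.74, 9.66 and 10.20 in C10. It gave 9.81, 9.69, 9.64 and 10.02 in CF and 9.42, 9.37, 9.54 and 9.29 in I. All 4 C10 and all 4 CF rats were above all 4 REF and all 4 I rats, with an exact two-sided permutation p of 0.0286 for each of these 4 pairs. Over all genes by their brightest probe, 2.62 % were separated upward in C10 vs. REF and 3.41 % in C10 vs. I. Such a share was not counted for the pairs with CF or over all probes. The means were 9.48 ± 0.13 in REF, 9.94 ± 0.28 in C10, 9.79 ± 0.17 in CF and 9.41 ± 0.10 in I (SD, n = 4). In a fit over all 21946 kept probes, C10 exceeded REF by 0.46, or 1.37-fold (SE 0.067, limma adjusted p = 0.00638), and exceeded I by 0.52, or 1.44-fold (SE 0.073, limma adjusted p = 0.0064). At any fold, 1.46 % of all probes passed in the first pair and 0.601 % in the second, and of the 14 probes of the 9 genes 1 and 2 did. CF exceeded REF by 0.32 (SE 0.073, limma adjusted p = 0.566) and I by 0.39 (SE 0.067, limma adjusted p = 0.976), and C10 and CF differed by 0.14 (limma adjusted p = 0.363).

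The rise of this probe with cocoa passed the adjusted threshold in all 16 fits without 1 rat, at 0.416 to 0.525 against REF and 0.473 to 0.56 against I. On the shared arrays it was higher in the C10 rat than in the REF rat by 0.62 and 0.18, and higher in the CF rat than in the I rat by 0.23 and 0.65, whereas C10 and CF rats differed by -0.14 and 0.51 and I and REF rats by 0.25 and -0.26. In the pairs of C10 and CF rats and of I and REF rats, the Cy5 rat was the higher on each array, and the part of the dye in these signs was not tested. The 2 probes had r = 0.336 over the rats. Slc11a2 produces several transcripts from 2 promoters and with different ends, and which of them each probe reads is not given in the sources used here. The contrast between the probes was seen after their values were known. For the other genes with a second probe, r between the probes was 0.838 for Slc40a1, 0.935 for Fth1 and 0.325 for Tfrc, whose dimmer probe differed between C10 and REF by 0.19 (limma adjusted p = 0.35).

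**Figure D5:**
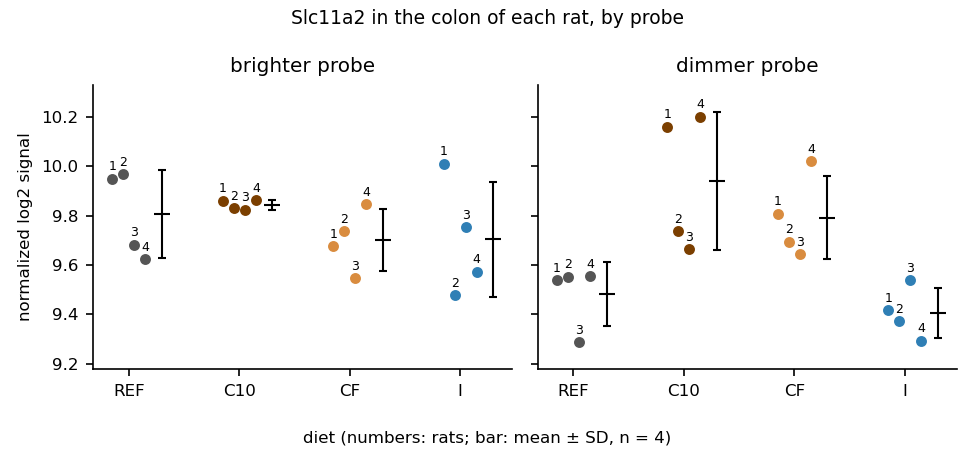
Normalized log2 signal (vertical axis) of the brighter probe (left) and the dimmer probe (right) of Slc11a2 in each of the 4 rats per diet (horizontal axis), numbered points being rats and black bars the mean ± SD. By the dimmer probe, C10 and CF rats, from 9.64 to 10.20, all lie above REF and I rats, from 9.29 to 9.55, and by the brighter probe the diets overlap.

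As a group the 9 genes had a median log2 fold change of 0.15 in C10 vs. REF, where the median over all genes was 0.014. The medians were 0.07 in CF vs. REF and -0.08 in I vs. REF, against 0.014 and 0.0078 over all genes. Higher values were found for 7 of the 9 genes in C10, 7 in CF and 2 in I, all against the same REF rats. The other diet pairs gave medians of 0.08 in C10 vs. CF, 0.17 in C10 vs. I and 0.14 in CF vs. I, with 0.0025, 0.0044 and 0.0033 over all genes.

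The wider set of metal genes held 80 further genes, of which 67 were tested. In C10 vs. CF and C10 vs. I 0 of them were called, beside 0.124 % and 0.18 % of all genes. In C10 vs. REF 1 of them was called, beside 0.232 % of all genes. Mt3, a metallothionein best known from the brain that binds zinc and copper, fell in C10, while Mt2A and Mt1 had their highest signals there. Its signals were 8.97, 9.43, 8.76 and 9.54 in REF and 7.51, 8.04, 8.54 and 7.91 in C10. In CF they were 8.10, 9.12, 8.50 and 8.62, and in I 8.46, 9.29, 8.66 and 8.90. Every C10 rat was below every REF rat, and the difference was -1.25 (SE 0.22, limma adjusted p = 0.0165). The differences of C10 from I, -0.85 (limma adjusted p = 0.14), and of CF from REF, -0.72 (limma adjusted p = 0.629), did not pass. Among the rats with low Mt3 was C10 rat 1, at 7.51, which also had the lowest mean of the 7 smooth muscle markers, 12.21 against 14.33 to 14.87 in REF rats, and the part of that in the Mt3 value was not tested.

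In single diet pairs 0 to 0.232 % of all genes were called. Of the other metal lists, with those of the 9 genes that belong to them, 0 genes were called in any diet pair. These were 7 of 10 zinc exporters of the SLC30 family, 12 of 14 zinc importers of the SLC39 family, 13 of 14 genes of iron uptake and reduction, 10 of 12 of iron storage and export, 7 of 10 of iron sensing, 13 of 14 of mitochondrial iron and heme synthesis, and 9 of 9 of copper handling, the first number being those tested. Over the 67 genes the median difference of C10 from REF was 0.0085, with 11 genes at an unadjusted p below 0.05, where 18.7 % of all genes had one. In CF vs. REF and I vs. REF it was -0.03 and -0.02, with 4 and 8 genes, against 7.18 % and 6.28 % of all genes. Steap1, a metalloreductase of the iron uptake list, had the lowest C10 value after Mt3, at -0.76 (SE 0.31, limma adjusted p = 0.211), and the largest rise against REF in CF was 0.40 for Slc46a1, a heme and folate carrier (limma adjusted p = 0.841). Mt4, the remaining metallothionein on the array, differed from REF by 0.11 in C10 (limma adjusted p = 0.809) and by -0.53 in I (SE 0.19, limma adjusted p = 0.728).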

How the data were processed

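Each array measured RNA of 2 rats. The authors deposited the output of Agilent Feature Extraction (version 10.7.3.1 per the submitters' processing notes), whose median spot and background intensities, not normalized, were used. The deposited processed signal intensities, background-subtracted and dye-normalized by that software, served as an alternative. A deposited table of the series was left aside, its 8 columns having no match among the rats' labels. Median signals were 109.5 to 169 in Cy3 and 302.5 to 426.5 in Cy5, over backgrounds of 21 to 25.5 and 71 to 74, and 0 spots were saturated. The lowest log2 signal well above background was 5.82 to 6.4, and the number of arrays limits the precision.

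With limma 3.58.1 in R 4.3.3 (statmod 1.5.0; data.table package, version 1.17.8), intensities were corrected by normexp (offset 50), then by spatial loess (span 0.4), intensity loess (span 0.3) and Aquantile, the steps of the methods with settings chosen here. The medians replaced the mean intensities first planned. Spots of a probe were averaged without outlier flags (604 to 896 per array). The filter asked for signal well above background in 4 or more of the 16 rats, which 21946 of 30367 probes met, and each of 19392 genes was represented by its brightest. Diet and dye were fitted to single channels with the array as a block (intraspot correlation 0.469), and p-values were adjusted by Benjamini-Hochberg.

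The genes described and all lists were chosen with earlier results of these data known. Beyond the 9 genes, the text names genes of the metal and glucocorticoid lists that were called or had the 2 largest rises or falls against REF, and the 5 most like Mt2A. Others were chosen after their values were seen. Rats are the replicates, and the limma p-values set a diet difference against the variation between rats. The methods mention dye swaps of each sample, while the labels give each rat 1 dye. Promoter sequences are from RefSeq, assembly GRCr8.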

Additional observations from a re-analysis of the deposited data

Results flagged for a closer look

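Within the REF group, rat 3 stood apart from the other 3 rats for Mt2A, at 12.50 against 13.97 to 14.11, the gap being 0.909 of the range of the group, past the limit of Dixon's test for 4 samples. It was the only such case among the 36 groups of 4 rats examined, and chance gives about 1 in 20. The same rat had the lowest Mt1 of its group, 14.79, and a B cell marker mean of 9.58. Without it, Mt2A was 0.98 log2 higher in C10 than in REF.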

How the results depend on the processing

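The labels give no replicate numbers shared between diets, so no fit was blocked on them. The pairing of rats on arrays entered the limma fits as a block and the fit on log-ratios directly. It did not enter the rank products, which compare diet means, or the exact permutation tests. Mt2A and Mt1, with SDs of up to 1.42 and 0.97 log2 in I rats, had wide intervals with 4 rats per diet. Of 58 results, 38 kept their direction in all settings; the largest value among the 20 that did not was 0.236. The cause of the changes below was not tested.

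With the Hox and B cell covariates, 2 of the 9 genes were called in C10 vs. REF and 2 in C10 vs. I. That fit called 37 and 44 of all 19392 genes. With rank products 2, 2 and, in CF vs. I, 1 were called, beside 0.701 %, 0.562 % and 0.0774 % of all genes. The direction of Mt2A, Mt1 and Slc39a4 was kept by all settings. Slc39a4 in C10 vs. I passed at any fold in 4 of the 13 other settings. Among those where it did not pass were the array set as a term (limma adjusted p = 0.124) and log-ratios (limma adjusted p = 0.285). The dimmer Slc11a2 probe passed in C10 vs. REF and C10 vs. I in 6 of 9 other settings, and not without between-array normalization (limma adjusted p = 0.087 and 0.0813), without a dye term (0.0892 and 0.128) or on log-ratios (0.174 and 0.29).

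Small differences reversed as follows (log2). With an array set term, values were -0.0178 for Slc11a2 in C10 vs. I, -0.0154, -0.0233, -0.00789 and 0.0829 for Slc30a1 in C10 vs. CF, C10 vs. I, CF vs. I and I vs. REF, 0.0067 for Slc40a1 in C10 vs. CF and 0.00619 for Tfrc in I vs. REF. On log-ratios they were 0.0085 for Fth1 in I vs. REF, -0.0178 for Slc11a2 in C10 vs. I, -0.0573, -0.0233 and 0.125 for Slc30a1 in C10 vs. CF, C10 vs. I and I vs. REF, 0.0196 for Slc40a1 in C10 vs. CF and 0.00578 for Tfrc in I vs. REF. With the mean of all probes, Slc11a2 was 0.223, 0.169 and 0.097 in C10 vs. REF, CF vs. I and CF vs. REF, and Tfrc 0.0119 in I vs. REF. Slc11a2 in C10 vs. REF was 0.00847 without a dye term, 0.0211 on processed signals, 0.000337 under quantile normalization and 0.0373 with rank products. Slc40a1 in C10 vs. CF was 0.0226 without between-array normalization, 0.0147 on processed signals and 0.0167 under quantile normalization. Slc30a1 in I vs. REF was 0.0563 without between-array normalization and 0.0258 with covariates, which gave -0.165 and -0.0355 for Slc40a1 in C10 vs. REF and CF vs. REF. Fth1 was 0.0275 in I vs. REF under quantile normalization and -0.064 in CF vs. REF with rank products. Within arrays 1 to 4, a choice made after seeing the data, Slc30a1 was -0.0914 and Slc40a1 0.0592 in C10 vs. CF, Slc40a1 -0.0493 and Tfrc -0.126 in CF vs. REF, and Tfrc -0.17 in C10 vs. REF. Within arrays 5 to 8, Slc11a2 was 0.00548 and 0.0308 in CF vs. REF and I vs. REF, Slc30a1 -0.0828, -0.0749 and 0.00793 in CF vs. I, CF vs. REF and I vs. REF, and Tfrc 0.187 in I vs. REF.

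Leaving out 1 rat at a time reversed 14 results, whose ranges were -0.0259 to 0.142 for Fth1 in CF vs. REF, -0.0303 to 0.164, -0.0706 to 0.0883 and -0.167 to 0.0729 for Slc11a2 in C10 vs. I, C10 vs. REF and CF vs. I, -0.0209 to 0.207, -0.0694 to 0.171 and -0.0983 to 0.0332 for Slc30a1 in CF vs. I, CF vs. REF and I vs. REF, -0.175 to 0.108, -0.284 to 0.00087, -0.0552 to 0.232 and -0.0491 to 0.19 for Slc40a1 in C10 vs. CF, C10 vs. I, C10 vs. REF and CF vs. REF, and -0.028 to 0.19, -0.0395 to 0.189 and -0.177 to 0.0452 for Tfrc in C10 vs. I, C10 vs. REF and I vs. REF.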

Other observations

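Glucocorticoid hormones also induce metallothionein genes, and 8 of 8 listed genes known to respond to them were tested. None was called in any diet pair, beside 0 to 0.232 % of all genes. The list had a median log2 fold change of 0.27 in C10 vs. REF, with 7 genes higher and 4 at an unadjusted p below 0.05, where 18.7 % of all genes had one. In I vs. REF the median was 0.09, with 5 genes higher and again 4 at an unadjusted p below 0.05, against 6.28 % of all genes. In CF vs. REF it was 0.06, with 2 such genes, against 7.18 %. Fkbp5, a chaperone partner of the glucocorticoid receptor, was 8.86, 9.27, 9.37 and 9.20 in REF and 9.91, 9.46, 10.21 and 10.41 in C10. It was 10.09, 10.01, 9.65 and 9.23 in CF and 10.05, 9.68, 9.84 and 9.61 in I. All C10 and all I rats lay above all REF rats, while CF rat 4 lay among them. The differences from REF were 0.69 in C10 (SE 0.17, limma adjusted p = 0.0558), 0.39 in CF and 0.58 in I (SE 0.17, limma adjusted p = 0.66). Sgk1, a kinase that regulates epithelial sodium transport, was 10.55, 11.01, 10.71 and 11.21 in REF and 10.73, 11.89, 11.24 and 11.84 in C10. It overlapped between these groups and differed by 0.59 (SE 0.26, limma adjusted p = 0.246). Nr1d1, a repressor of the circadian clock that was well above background in 2 of 4 REF rats, differed by 0.78 in I vs. REF (SE 0.17, limma adjusted p = 0.459).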
